A study of Mus musculus with 12 samples.

Results

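The Hox genes are the 39 protein-coding genes of the mouse HoxA, HoxB, HoxC and HoxD clusters, taken from the deposited count table by their symbol (Hox, a cluster letter and a number) and their protein-coding label. They are 39 of 21950 protein-coding genes and of 52550 genes in all. Their RNA was measured in whole lungs of 12 mouse pups on postnatal day 5, with 3 libraries in each of 4 groups. Wild-type pups (WT, Adm+/+) given phosphate-buffered saline (PBS) were replicates 3, 4 and 5, and WT pups given lipopolysaccharide (LPS) were replicates 9, 10 and 11. Adm+/- pups, born with 1 intact allele of the adrenomedullin gene (Adm) in all cells, were replicates 6, 7 and 8 with PBS and replicates 1, 2 and 12 with LPS. LPS, an endotoxin of Escherichia coli O55:B5 that sets off inflammation, was injected into the abdomen at 6 mg/kg on postnatal days 3 to 5, and the lungs were frozen 6 h after the last of 3 doses. All pups were on the C57BL/6J background, to which the Adm+/- line had been backcrossed from 129/SvEv. The questions were how Hox transcripts respond to LPS in each genotype, and whether the responses differ.

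Hox genes encode transcription factors with a homeodomain, which bind DNA together with partners of the TALE class such as the Pbx and Meis proteins. The genes of a cluster lie in the order in which they are switched on along the head-to-tail axis of the embryo, and genes at the same place in different clusters form a paralog group, shown by their number. Retinoic acid and the Cdx factors switch the clusters on, Polycomb proteins keep them silent and Trithorax proteins keep them active. In the lung, Hox genes of the middle paralog groups are expressed mainly in the mesenchyme. Hoxa5 is needed for normal growth of the airways and alveoli, and Hoxb5 takes part in airway branching.

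On mm10, the HoxA cluster of 11 genes lies on chromosome 6, and the HoxB cluster of 10 genes spans chromosome 11 from 96194316 to 96368256. The HoxC cluster of 9 genes spans chromosome 15 from 102921103 to 103036852, and the HoxD cluster of 9 genes spans chromosome 2 from 74668310 to 74765142. Total counts per library ran from 22382535 to 38062873, and the Hox genes together had from 2696 to 5742 of them. Levels are given as CPM, the counts scaled to library size with edgeR's TMM factors, and, where genes are compared with each other, as CPM per kilobase of exon. Of the 39 members, 18 passed edgeR's filter on low counts and were tested among 15885 genes. Of the other 21, a further 6 had more than 3 counts in some library, 7 had 1 to 3 counts at most in any library, and 8 had 0 counts in all libraries. The latter were Hoxa11, Hoxb13, Hoxc9, Hoxc10, Hoxc11, Hoxc12, Hoxd11 and Hoxd12. A count of 0 allows up to 3 counts per library, and this limit covers counting error only. In whole lung, fewer cells of a type and less RNA per cell cannot be told apart.

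Adm, the targeted gene, had 3.96 to 7.09 CPM in WT PBS and 2.87 to 4.58 CPM in Adm+/- PBS, and 4.46 to 8.15 CPM in WT LPS against 3.74 to 6.28 CPM in Adm+/- LPS. The genotypes overlapped, and Adm was not called between them (log2 fold change -0.50 with PBS and -0.55 with LPS, adjusted p = 0.999 and 0.48 from edgeR), so the Adm counts alone do not separate the genotypes. The study genotyped the mice and also measured Adm by real-time RT-PCR. Some libraries stood apart from the rest. WT PBS replicate 5 and Adm+/- PBS replicate 6 had 77.8% and 80.1% of their counts on protein-coding genes, below all other libraries. Gm26917 alone held 16.58% and 13.31% of their counts, against 5.42% to 7.40% elsewhere. Their fibroblast markers summed to 46860 and 31010 CPM, against 13050 to 18980 CPM in the other 10 libraries. Most of these sums came from Col1a1, Col1a2 and Col3a1. The mean log2 CPM of the list was 8.17 and 7.76 there, against 7.72 to 8.26 elsewhere. In WT PBS replicate 5 brown fat and cartilage markers summed to 94.8 and 206.5 CPM, against 46.1 to 67.2 and 22.5 to 75.8 CPM elsewhere. Skeletal muscle markers summed to 771 to 1968 CPM in the WT LPS libraries and to 8.47 to 34.9 CPM in the other 9, where Myod1 was at 0. Markers of type II pneumocytes, an epithelial cell type of the alveoli, summed to 13820 to 17610 CPM in all 12 libraries. Sftpc alone had 7628 to 11610 CPM. Of these 10 markers, 0 were called after LPS in WT. In Adm+/- pups 2 were called higher and 2 lower after LPS (12.8% and 12.2% of all genes).

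The lung carried mostly the A and B clusters. Per kilobase, the A cluster held 59.0% of the mean Hox level over the 12 libraries, the B cluster 38.6%, the D cluster 2.03% and the C cluster 0.367%. The groups differed in the low clusters. The D cluster summed to 2.68 ± 0.554 CPM per kilobase in WT LPS and to 0.951 ± 0.329 in WT PBS, 0.723 ± 0.0754 in Adm+/- PBS and 1.12 ± 0.200 in Adm+/- LPS (SD, n = 3). The C cluster summed to 0.758 ± 0.343 CPM per kilobase in WT LPS and to 0.0527 to 0.0951 on the mean of each other group. Paralog groups 1 to 8 held 99.2% of the mean level of all Hox genes. Of the 15 members of the A and B clusters in these groups, 14 were tested, and the exception was Hoxb1, with at most 4 counts in a library. Hoxa5 had the highest mean level, 24.1 CPM per kilobase. Hoxb4, known for its role in blood stem cells, followed at 10.5 CPM per kilobase and Hoxb5 at 5.21. Hoxa4, Hoxa2 and Hoxb6 lay close together at 4.35, 4.19 and 4.13 CPM per kilobase, and their order changed between libraries. Hoxa3, Hoxa6 and Hoxb3 lay at 3.22, 2.86 and 2.85, and Hoxb2 and Hoxb7 at 1.47 and 1.38 CPM per kilobase. Below 1 CPM per kilobase on the mean of all 12 libraries came Hoxd8 (0.781), Hoxa7 (0.538), Hoxb8 (0.443), Hoxd9 (0.383), Hoxd4 (0.147) and Hoxc4 (0.139). This order did not hold in each group. Hoxd8 had 1.45 to 1.93 CPM per kilobase in WT LPS and 0.296 to 0.422 in Adm+/- PBS, where it lay below Hoxa7 (0.599 to 1.02) and Hoxb8 (0.649 to 1.02). Hoxd9 was the only tested gene of the 16 members in paralog groups 9 to 13.

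**Figure D1:**
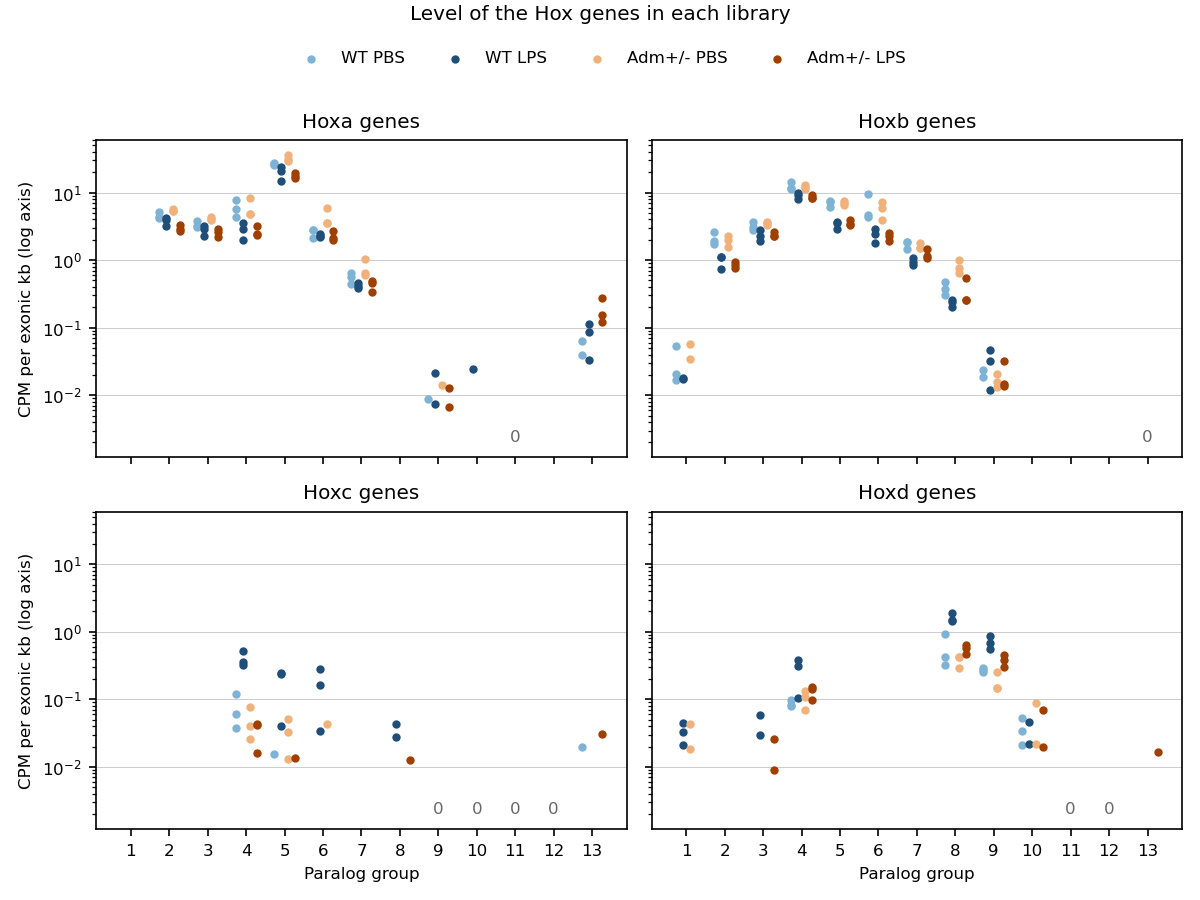
Level of each Hox gene in each library, as CPM per kilobase of exon on a log axis, by cluster (panels) and paralog group (horizontal axis). Points are libraries, colours are groups, libraries at 0 are not drawn, and a grey 0 marks the 8 genes with no count in any library. Hoxa5 stood highest at a mean of 24.1, and the highest gene of the C and D clusters, Hoxd8, had a mean of 0.781.

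Promoter sequences from RefSeq on GRCm38.p6, from 250 bases before to 50 bases after the annotated start, were found for 22 Hox genes with 24 promoters. They are shown for Hoxa5, the member with the highest level, and for Hoxd8 and Hoxc4, the 2 tested members called between genotypes under LPS below. Promoters of called and abundant members can thus be read side by side. The Hoxa5 window lies at chr6:52204538-52204837 on the minus strand, that of Hoxd8 at chr2:74704365-74704664 on the plus strand, and that of Hoxc4 at chr15:103034145-103034444 on the plus strand. The RefSeq start of Hoxc4 lies inside the longer Gencode gene, which begins at 103018934. Capitals mark the letters AGGTCA, on either strand, a motif of nuclear receptors such as those for retinoic acid.
Hoxa5: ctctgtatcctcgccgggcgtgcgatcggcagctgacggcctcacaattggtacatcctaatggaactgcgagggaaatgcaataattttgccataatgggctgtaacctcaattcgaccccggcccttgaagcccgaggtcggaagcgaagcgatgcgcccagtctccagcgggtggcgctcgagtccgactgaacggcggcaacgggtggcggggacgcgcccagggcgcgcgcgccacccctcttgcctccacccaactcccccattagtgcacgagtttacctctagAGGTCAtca
Hoxd8: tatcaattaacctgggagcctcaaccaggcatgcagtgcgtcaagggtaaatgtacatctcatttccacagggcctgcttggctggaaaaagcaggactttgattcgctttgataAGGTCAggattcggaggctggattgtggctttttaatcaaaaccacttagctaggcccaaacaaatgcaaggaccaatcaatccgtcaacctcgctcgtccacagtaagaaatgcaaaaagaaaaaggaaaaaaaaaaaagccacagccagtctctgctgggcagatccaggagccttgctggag
Hoxc4: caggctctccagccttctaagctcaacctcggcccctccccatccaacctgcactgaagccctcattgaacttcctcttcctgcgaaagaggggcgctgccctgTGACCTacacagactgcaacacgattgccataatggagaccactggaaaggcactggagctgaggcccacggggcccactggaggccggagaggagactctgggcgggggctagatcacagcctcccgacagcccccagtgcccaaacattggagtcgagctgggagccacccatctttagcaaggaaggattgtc
The letters AGGTCA stood in 7 of the 24 Hox promoters and in 16.3% of all 32851 promoters of this length, searched on both strands. Of the other motifs searched, TTTATG (bound by Cdx factors) stood in 5 Hox promoters and 11.9% of all, and TGATTNAT (Pbx with Hox) in 2 and 3.22%. TTCNNNGAA (STAT factors) and TGANTCA (AP-1) stood in 1 Hox promoter each and in 8.30% and 7.81% of all. The 29 CG pairs in the Hoxa5 window compare with 6 for Hoxd8 and 9 for Hoxc4, and the median was 14.5 over Hox promoters and 7 over all promoters. A match is a description of letters and not a bound site.

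In WT pups, 5 of 14 tested genes of the A and B clusters fell after LPS, and all 4 tested genes of the C and D clusters rose. Genes with an absolute log2 fold change over 0.5 were called where their p-value, adjusted by Benjamini and Hochberg, was under 0.05. Of the 18 tested Hox genes, 9 were called in WT pups, where 17.6% of all tested genes were. Called lower were 5 (7.09% of all genes) and called higher 4 (10.5% of all genes). All 5 lower members lay in the A and B clusters, with Hoxa4 as the only one of the A cluster, and all 4 higher members were the tested genes of the C and D clusters. WT LPS and PBS libraries did not overlap for 10 members that were lower (17.9% of all genes) and 4 that were higher (18.3% of all genes). The median log2 fold change was -0.40 over the 18 members and 0.01 over all tested genes.

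In Adm+/- pups, 12 of 14 tested genes of the A and B clusters fell after LPS, and 1 of 4 of the C and D clusters rose. Of the 18 genes 13 were called, where 25.0% of all tested genes were. Called lower were 12 (12.2% of all genes), all 7 tested genes of the A cluster and 5 of 7 of the B cluster, and called higher was 1 (12.8% of all genes), Hoxd9. The libraries did not overlap for 14 members that were lower (27.1% of all genes), which are all tested genes of the A and B clusters, and for 2 that were higher (26.6% of all genes). The median log2 fold change was -0.83 over the 18 members and -0.01 over all tested genes. Leukocyte markers moved with LPS in both genotypes. They summed to 98.5 to 214 CPM in the PBS libraries and 1150 to 2080 CPM in the LPS libraries. Of these 10 markers 6 were called higher in WT and 7 in Adm+/- pups (10.5% and 12.8% of all genes). All 12 cell cycle genes had negative log2 fold changes in both genotypes (medians -0.72 and -0.60), with 3 called lower in each, and they summed to 1062 to 1242 CPM in the PBS libraries and 562 to 1088 CPM in the LPS libraries. Of 10 endothelial markers 3 were called lower in each genotype, and of 12 smooth muscle and pericyte markers 2 in WT and 1 in Adm+/- pups, beside 7.09% and 12.2% of all genes. Thymocyte markers summed to 16.4 to 25.6 CPM in the PBS libraries and to 11.6 to 13.4 CPM in the LPS libraries, without overlap. Most of this sum was Cd1d1, at 12.7 to 19.8 CPM with PBS and 8.16 to 10.04 CPM with LPS. All 5 tested thymocyte markers had negative log2 fold changes in WT, but in Adm+/- pups 3 were negative and 2 positive. Fibroblast markers summed to 17790 to 46860 CPM in the PBS libraries and to 13050 to 17650 CPM in the LPS libraries, without overlap. Of the 14 fibroblast markers 3 were called higher in WT, and 1 was called higher and 1 lower in Adm+/- pups, so the markers did not move one way. The collagen genes Col1a1, Col1a2 and Col3a1, the most abundant of them, had -1.11, -1.05 and -0.82 in WT and were not called. The part of these cells in the Hox values was not tested.

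**Figure D2:**
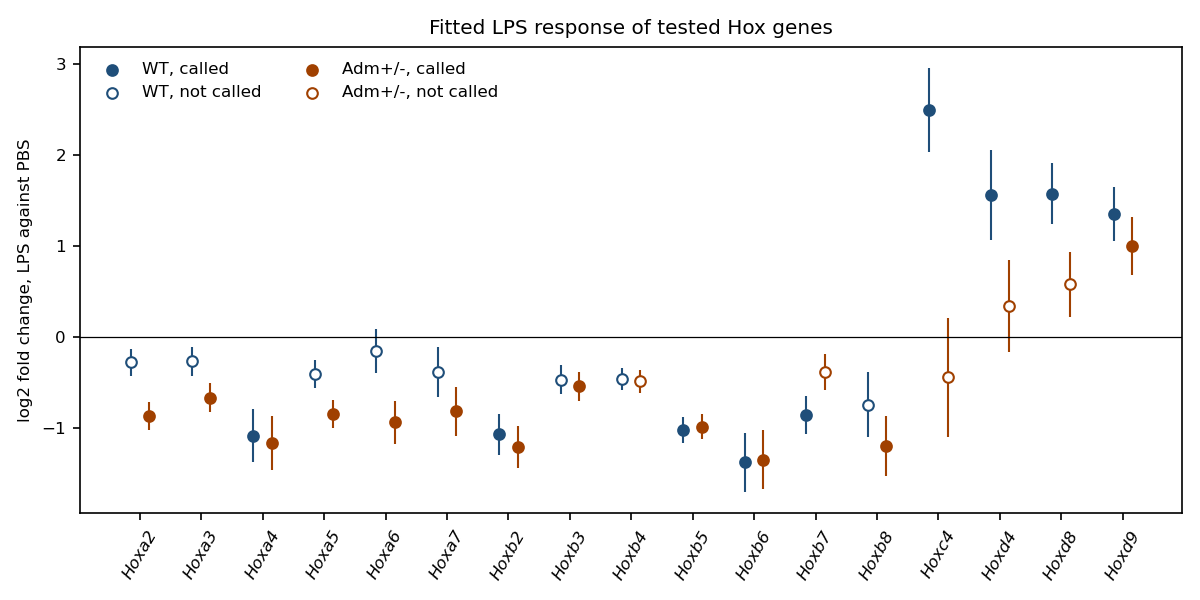
Fitted log2 fold change of LPS against PBS for tested Hox genes, in WT (blue) and Adm+/- (brown) pups, with standard errors from edgeR. Filled points were called. The genes of the A and B clusters that are drawn lie below 0, and Hoxc4, Hoxd4, Hoxd8 and Hoxd9 lie above 0 in WT.

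Hoxb5 had the lowest adjusted p of the 18 members in each genotype. Its WT PBS libraries had 20.9, 16.8 and 20.1 CPM, and its WT LPS libraries had 8.11, 10.27 and 10.04 CPM. Its Adm+/- PBS libraries had 17.99, 19.8 and 20.7 CPM, and its Adm+/- LPS libraries had 9.20, 10.9 and 9.44 CPM. Every LPS library lay below every PBS library of either genotype. The log2 fold changes were -1.03 in WT and -0.99 in Adm+/- pups, each with a standard error of 0.14 (edgeR adjusted p = 0.000825 and 0.00045). Both calls held in all 12 fits that each left out 1 library.

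Hoxb6, a gene of the trunk mesoderm, had 9.01, 8.59 and 18.8 CPM in WT PBS and 3.48, 5.61 and 4.86 CPM in WT LPS. In Adm+/- pups it had 14.3, 11.7 and 7.71 CPM with PBS and 4.53, 3.73 and 4.92 CPM with LPS. The PBS libraries spread widely and did not overlap the LPS libraries. WT PBS replicate 5 and Adm+/- PBS replicate 6, the libraries with the highest Col1a1, Col1a2 and Col3a1, were highest in their groups. The log2 fold change was -1.38 in WT (adjusted p = 0.0131) and -1.35 in Adm+/- pups (adjusted p = 0.00943, both from edgeR). The WT call was lost without WT LPS replicate 9 (-1.21, edgeR adjusted p = 0.0655).

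Hoxb2, which patterns the hindbrain in the embryo, had 6.72, 5.97 and 9.20 CPM in WT PBS and 2.59, 3.91 and 3.90 CPM in WT LPS. It had 7.996, 6.96 and 5.45 CPM in Adm+/- PBS and 2.66, 3.23 and 2.92 CPM in Adm+/- LPS. Again no LPS library reached the PBS range of either genotype. Its log2 fold change was -1.07 in WT (adjusted p = 0.00773) and -1.21 in Adm+/- pups (adjusted p = 0.00243, both from edgeR). Hoxb2 shares 27.3% of its exon bases, and Hoxb3 52.9%, with Hoxb3os on the opposite strand, and the strand option of the counting is not given in the sources used here, so these values may hold reads of that antisense gene.

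The other tested B cluster genes were negative in both genotypes. Hoxb3, which acts in the neck and throat organs, ran from 11.98 to 15.7 CPM over the 6 PBS libraries and from 8.07 to 11.8 CPM over the 6 LPS libraries. It had a log2 fold change of -0.47 in WT (adjusted p = 0.0561, not called) and -0.54 in Adm+/- pups (adjusted p = 0.024, both from edgeR). For Hoxb4 the values were -0.46 (adjusted p = 0.0232) and -0.49 (adjusted p = 0.0119, both from edgeR), which pass the p threshold and miss the fold threshold. Its LPS libraries lay at 20.7 to 25.2 CPM and its PBS libraries at 28.8 to 37.3 CPM over both genotypes. Hoxb7 ran from 2.29 to 2.90 CPM in WT PBS and from 1.29 to 1.67 CPM in WT LPS. It fell by 0.86 in WT on the log2 scale (edgeR adjusted p = 0.0135), and had -0.39 in Adm+/- pups (adjusted p = 0.169 from edgeR). Its WT call was lost without WT LPS replicate 9 (-0.78, edgeR adjusted p = 0.0646). Hoxb8 had -0.74 in WT (adjusted p = 0.151 from edgeR) and fell by 1.20 in Adm+/- pups (adjusted p = 0.0164 from edgeR).

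In the A cluster, Hoxa5 had 52.2, 49.8 and 47.4 CPM in WT PBS and 28.1, 39.4 and 45.3 CPM in WT LPS. It had 59.2, 54.2 and 66.8 CPM in Adm+/- PBS and 36.2, 31.0 and 33.1 CPM in Adm+/- LPS. The groups did not overlap in either genotype, and the WT LPS libraries were the most spread, with replicate 11 close to the PBS range. The log2 fold change of Hoxa5 was -0.41 in WT, not called, and -0.85 in Adm+/- pups, each with a standard error of 0.16 (edgeR adjusted p = 0.0825 and 0.00208).

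Hoxa4 fell by 1.09 on the log2 scale in WT (adjusted p = 0.0241) and by 1.17 in Adm+/- pups (adjusted p = 0.0118, both from edgeR). Its WT PBS libraries had 9.17, 6.84 and 12.5 CPM and its WT LPS libraries 3.21, 4.57 and 5.66 CPM. Its Adm+/- PBS libraries had 13.3, 7.64 and 7.71 CPM and its Adm+/- LPS libraries 3.85, 3.81 and 5.02 CPM. The highest PBS values were again those of WT PBS replicate 5 and Adm+/- PBS replicate 6. The WT value was not called without WT PBS replicate 5 (-0.85, adjusted p = 0.0697), WT LPS replicate 9 (-0.90, adjusted p = 0.106) or WT LPS replicate 10 (-1.11, adjusted p = 0.052, all from edgeR).

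Over the Adm+/- libraries, Hoxa2 ran from 9.39 to 10.06 CPM with PBS and from 4.79 to 5.92 CPM with LPS, and Hoxa3, needed for the thymus and parathyroid, from 23.5 to 25.9 CPM and from 13.03 to 17.6 CPM. Neither overlapped. Hoxa2, Hoxa3, Hoxa6 and Hoxa7 fell in Adm+/- pups by 0.87, 0.67, 0.94 and 0.82 on the log2 scale (adjusted p = 0.00146, 0.00786, 0.0111 and 0.0384 from edgeR). In WT pups these 4 genes had -0.28, -0.27, -0.15 and -0.38 (adjusted p from 0.199 to 0.679), and none was called. Among the calls in Adm+/- pups, those of Hoxa2, Hoxa3, Hoxa4 and Hoxa5 held in all 12 fits that each left out 1 library. The call of Hoxa6 held in 11 of these fits and that of Hoxa7 in 5.

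**Figure D3:**
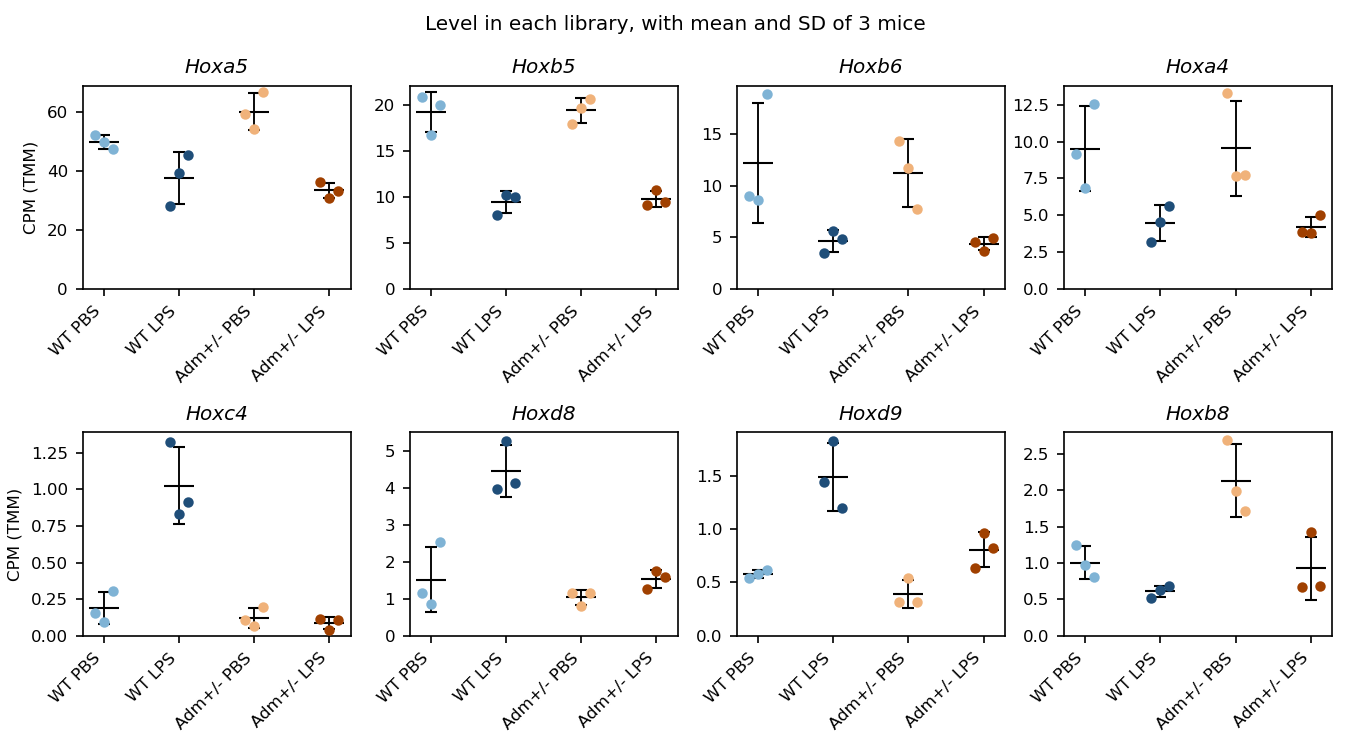
CPM of 8 Hox genes in each library by group, with the mean (line) and SD (bars) of 3 libraries; each axis starts at 0. Hoxb5 fell in both genotypes, Hoxa4 lay at 6.84 to 13.3 CPM in PBS and 3.21 to 5.66 CPM in LPS libraries, and Hoxc4 lay at 0.832 to 1.33 CPM in WT LPS and at 0.309 CPM or less elsewhere.

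Among the 18 tested genes, those that rose came from the C and D clusters and had low levels. Hoxd8, a gene of the trunk and limb, had 1.17, 0.874 and 2.53 CPM in WT PBS and 3.98, 5.28 and 4.14 CPM in WT LPS. It had 1.16, 0.811 and 1.15 CPM in Adm+/- PBS and 1.27, 1.76 and 1.603 CPM in Adm+/- LPS. The WT LPS libraries lay above every other library. The log2 fold change of Hoxd8 was 1.58 in WT (adjusted p = 0.00792 from edgeR) and 0.58 in Adm+/- pups (adjusted p = 0.242 from edgeR, not called).

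Hoxd9 had 0.544, 0.582 and 0.618 CPM in WT PBS and 1.45, 1.83 and 1.20 CPM in WT LPS. With Adm+/- it had 0.316, 0.541 and 0.318 CPM after PBS and 0.636, 0.964 and 0.820 CPM after LPS. It was the member called higher in both genotypes, with a log2 fold change of 1.36 in WT (adjusted p = 0.00893) and 1.001 in Adm+/- pups (adjusted p = 0.033, both from edgeR). Its Adm+/- call was lost in some of the fits that each left out 1 library. For Hoxd4 the WT rise was 1.56 (log2, edgeR adjusted p = 0.0449). Its WT LPS libraries had 0.308, 1.12 and 0.916 CPM, with replicate 9 just above the highest WT PBS library at 0.291 CPM. The WT call of Hoxd4 held in 1 of the 12 fits that each left out 1 library, with a log2 fold change from 1.20 (without WT LPS replicate 10, adjusted p = 0.136 from edgeR) to 1.96. It shares 39.1% of its exon bases with Gm28230 and 13.2% with Hoxd3 on its own strand, so its counts are uncertain.

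Hoxc4 had 4, 2 and 5 counts in WT PBS and 43, 20 and 23 counts in WT LPS, against 2, 2 and 5 in Adm+/- PBS and 3, 1 and 3 in Adm+/- LPS. Its log2 fold change was 2.50 in WT, with a standard error of 0.46 (edgeR adjusted p = 0.00373), and -0.45 in Adm+/- pups (adjusted p = 0.661 from edgeR), where 5 counts or fewer per library leave little to compare. Its neighbours were too low to be tested. Hoxc5 had 24, 3 and 19 counts in WT LPS replicates 9, 10 and 11 and 3 or fewer in every other library, and Hoxc6 had 22, 2 and 10 against 2 or fewer. Hoxc8 had 4, 0 and 2 counts there and 1 or fewer elsewhere. Exons of Hoxc5 and Hoxc10 overlap on the same strand. When no filter on low counts was used, Hoxc5 and Hoxc6 were called in WT (adjusted p = 0.0112 and 0.0405 from edgeR). Hoxc5 was then also called lower in Adm+/- than in WT pups with LPS (adjusted p = 0.0329 from edgeR).

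Markers of other tissues moved with the C and D clusters in the WT LPS libraries. The C cluster summed to 2.87, 1.04 and 2.15 CPM in WT LPS replicates 9, 10 and 11, against 0.0838 to 0.368 CPM in the other 9 libraries, and the D cluster to 5.92, 8.65 and 6.33 CPM against 1.59 to 3.46. In the same order, skeletal muscle markers summed to 1807, 1968 and 771 CPM, and squamous epithelium markers to 3514, 38.1 and 1792 CPM, against 4.56 to 49.7 CPM elsewhere, a range that holds replicate 10. Sprr3 and Tmprss11b, squamous markers, were at 0 in all PBS libraries. Of 13 tested muscle markers 13 were called higher in WT and 1 in Adm+/- pups, and of 11 tested squamous markers 10 and 0. Of all tested genes, 10.5% and 12.8% were called higher. The fibroblast markers Dcn and Lum, named here after their values were seen, were also highest in these libraries. Dcn had 92.5, 57.3 and 84.3 CPM against 8.10 to 35.7 CPM elsewhere, and Lum 29.3, 19.2 and 28.4 CPM against 1.47 to 9.01 CPM. Both were called higher in WT (adjusted p = 0.0127 and 0.0221 from edgeR), as was Inmt. The list as a whole did not go this way, since 9 of its 14 markers had negative log2 fold changes in WT (median -0.27), among them Col1a1 at -1.11 (adjusted p = 0.0834 from edgeR, not called). With the muscle marker level as a covariate, 0 of the 18 Hox genes and 0 of all tested genes were called in WT by edgeR. The WT log2 fold changes in that fit were -1.03 for Hoxb5 and -1.16 for Hoxb2 (adjusted p = 0.889 for each), and 0.29 for Hoxd8 and 0.54 for Hoxd9 (adjusted p = 0.962 and 0.947, all from edgeR), so that calls were lost both with and without a smaller fold. Whether these tissues were the source of the C and D cluster counts was not tested, and genotype, treatment and these markers cannot be told apart in the WT LPS group.

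**Figure D4:**
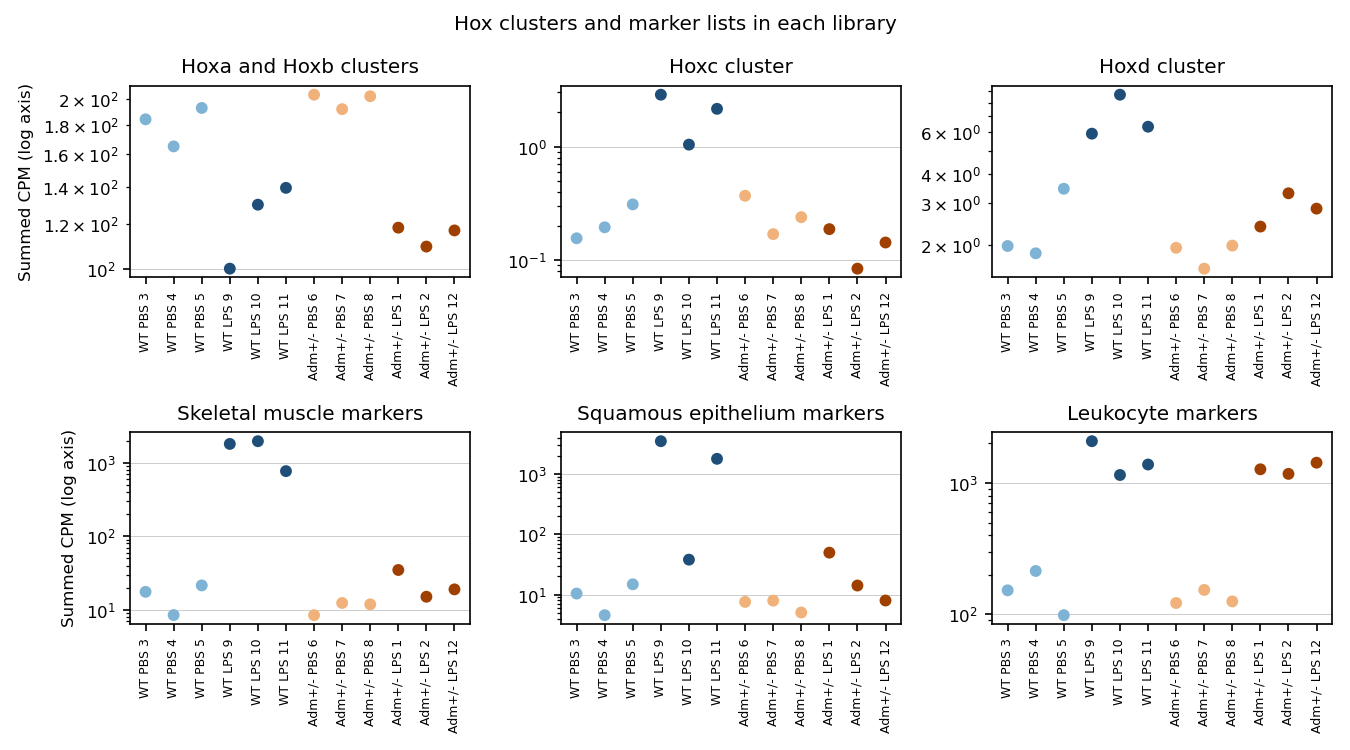
Summed CPM of the Hox clusters and of 3 marker lists in each of the 12 libraries, on log axes. The A and B clusters are lower in all LPS libraries, the C and D clusters are highest in WT LPS replicates 9, 10 and 11, as are skeletal muscle markers (771 to 1968 CPM), and leukocyte markers are higher in all LPS libraries.

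Hoxa13, a gene of the distal limb and hindgut, had 8, 9 and 19 counts in Adm+/- LPS, 0 in all 3 Adm+/- PBS libraries, 4, 2 and 0 in WT PBS and 7, 2 and 7 in WT LPS. Without a filter on low counts it was called higher in Adm+/- pups (adjusted p = 0.00329 from edgeR) and not in WT (adjusted p = 0.421). Hoxb1 had at most 4 counts and Hoxd3 at most 6. The 7 members with 3 counts at most were Hoxa9, Hoxa10, Hoxb9, Hoxc13, Hoxd1, Hoxd10 and Hoxd13.

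The difference between genotypes in the LPS response was called for 0 of the 18 Hox genes by edgeR, where 0.145% of all tested genes were called. The unadjusted p was under 0.05 for 4 of the 18 members, among them Hoxc4, Hoxa2 and Hoxa6, and for 1247 of all 15885 tested genes, and DESeq2 and limma-voom also called 0. The difference was negative, that is lower in Adm+/- pups, for 15 of the 18 members, with -2.95 for Hoxc4 (standard error 0.82, edgeR adjusted p = 0.345). All 7 tested genes of the A cluster were negative. In the B cluster 4 of 7 were negative, from -0.46 to 0.47. For Hoxb5 the difference was 0.04 (standard error 0.20). The larger number of A cluster calls in Adm+/- pups was thus not shown to be a difference between genotypes.

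Between genotypes with PBS, 0 of the 18 Hox genes and 0% of all tested genes were called by edgeR, while 344 of all genes had an unadjusted p below 0.05, among them 2 Hox genes. DESeq2 and limma-voom also called 0 Hox genes. These 2 were Hoxa6 at 1.84 to 2.41 CPM in WT and 3.10 to 5.13 CPM in Adm+/- pups (log2 fold change 0.77, adjusted p = 0.999 from edgeR), and Hoxb8 at 0.803 to 1.24 and 1.71 to 2.68 CPM (log2 fold change 1.05, adjusted p = 0.999 from edgeR). The libraries did not overlap for 5 members higher in Adm+/- pups (2.47% of all genes), Hoxa2, Hoxa3, Hoxa5, Hoxa6 and Hoxb8, and for 1 lower, Hoxd9 (2.51% of all genes). Hoxa5 had 49.8 ± 2.39 CPM in WT PBS and 60.1 ± 6.35 CPM in Adm+/- PBS (SD, n = 3). These PBS libraries also enter the LPS contrasts above.

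Between genotypes with LPS, 2 of the 18 Hox genes were called, where 2.05% of all tested genes were. Hoxc4 was lower in Adm+/- pups (log2 -3.47, standard error 0.49, edgeR adjusted p = 0.00406), as was Hoxd8 (log2 -1.53, standard error 0.33, edgeR adjusted p = 0.04). Hoxc4 had 86 counts over the WT LPS libraries and 7 over the Adm+/- LPS libraries, a ratio of 11.9 after scaling (95% exact binomial interval 5.51 to 30.3, for counting error only). The call of Hoxc4 held in all 12 fits that each left out 1 library, and that of Hoxd8 in 4 of them. The Hoxd8 values ran from -1.63 (without Adm+/- LPS replicate 2, adjusted p = 0.143) to -1.39 (without WT LPS replicate 10, adjusted p = 0.0719, both from edgeR). Neither gene was called with the skeletal muscle or the fibroblast covariate, and a filter at a mean of at least 1 CPM dropped Hoxc4. The libraries did not overlap for 4 members that were lower in Adm+/- pups (12.4% of all genes), among them Hoxc4, Hoxd8 and Hoxd9. Muscle and squamous markers differed the same way between these groups, with 11 of 13 and 6 of 11 tested markers called lower in Adm+/- pups, and their part in the values was not tested. In the B cluster none was called, with log2 fold changes from -0.24 to 0.60. Without a filter on low counts, Hoxc5 was also called lower in Adm+/- pups (log2 -4.96, adjusted p = 0.0329 from edgeR).

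Partners and regulators of the Hox genes were counted in lists, to be read against the 17.6% of all tested genes called in WT and the 25.0% called in Adm+/- pups. Of 9 TALE cofactors, 0 were called in WT and 1 in Adm+/- pups by edgeR, Pbx3 with -0.73 (adjusted p = 0.00991). The unadjusted p was under 0.05 for 2 and 3 of them, and for 5830 and 6639 of all 15885 tested genes. Meis1, at a mean of 112 CPM, had a log2 fold change of -0.22 in Adm+/- pups and was not called. Of 30 Polycomb genes, 1 was called higher in WT, Cbx7, and 2 higher and 5 lower in Adm+/- pups. The lower ones included Cbx2 at -1.08 (adjusted p = 0.0014) and Cbx8 at -1.29 (adjusted p = 0.00235, both from edgeR), chromodomain readers of the silencing mark, and Cbx7 of the same family rose by 0.78 (adjusted p = 0.00594 from edgeR). Of 18 Trithorax genes and H3K27 demethylases 1 rose in each genotype, Aff1, by 0.65 and 0.94 (adjusted p = 0.00543 and 0.000355 from edgeR).

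Of 21 Cdx and retinoic acid genes, 17 were tested, and Cdx1, Cdx2, Cdx4 and Cyp26a1 were not. In WT pups 1 was called higher and 2 lower, where 17.6% of all tested genes were called, and in Adm+/- pups 4 higher and 6 lower, where 25.0% were. Crabp1, which carries retinoic acid in the cell, fell by 3.44 in WT and 2.40 in Adm+/- pups on the log2 scale (adjusted p = 0.00189 and 0.00431 from edgeR). Aldh1a3, an enzyme that makes retinoic acid, rose by 1.66 and 1.95 (adjusted p = 0.0037 and 0.000894 from edgeR). The receptor gene Rarb had -0.17 in WT (adjusted p = 0.555) and fell by 0.88 in Adm+/- pups (adjusted p = 0.00573, both from edgeR).

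Other transcription factors of the lung mesenchyme were counted beside the Hox genes. Of 22 tested, 6 were called lower and 1 higher in WT (7.09% and 10.5% of all genes), and 7 lower and 1 higher in Adm+/- pups (12.2% and 12.8% of all genes), with medians of -0.19 and -0.48. Foxf2 fell by 1.25 and 1.41 on the log2 scale (adjusted p = 0.00154 and 0.00038 from edgeR) and Meox2 by 1.47 and 2.35 (adjusted p = 0.00508 and 0.00022 from edgeR). Foxf1, a regulator of lung mesenchyme named here after its values were seen, had a mean of 171 CPM and log2 fold changes of 0.08 and 0.17, and was not called. The summed level of the 22 genes was 2846 to 3401 CPM in PBS libraries and 2075 to 2603 CPM in LPS libraries. With the mean level of this list as a covariate, chosen after seeing the data, 2 Hox genes were called in WT and 0 in Adm+/- pups by edgeR. The lost Adm+/- values kept their sign. The share of all tested genes called in that fit is not given here. The loss is therefore not shown to be particular to the Hox genes. The covariate, the mean log2 CPM of the list, was 5.18 to 5.54 in PBS and 4.78 to 5.18 in LPS libraries. Its level and the treatment thus cannot be told apart.

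Genes that flank the clusters had medians near 0. Of the 24 nearest tested protein-coding genes, 3 on each side of each cluster, 2 were called higher and 1 lower in WT, where 17.6% of all genes were called, and 3 higher and 1 lower in Adm+/- pups, where 25.0% were. Their medians were 0.03 and 0.09. Cbx1, beyond the B cluster, fell by 0.62 and 0.63 on the log2 scale (adjusted p = 0.00458 and 0.0023 from edgeR). Snx10 and Tax1bp1, on either side of the A cluster, rose in both genotypes. Skap2, the nearest tested gene before the A cluster, had 0.36 and 0.39 and was not called.

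Each cluster was taken from its first to its last Hox gene plus 5 kb at each end. Other genes inside these spans made up 49 rows, of which 25 had 0 counts in every library. In a fit of all 23051 annotated genes that passed the filter, 12 were tested. In WT pups 2 were called lower (5.46% of all genes in that fit), and in Adm+/- pups 6 (10.5% of all genes in that fit). The A cluster gene 5730596B20Rik, which shares exon bases with Hoxa3 on the opposite strand, fell by 0.72 and 0.84 on the log2 scale (adjusted p = 0.0118 and 0.00286 from edgeR). Hoxb3os fell by 1.003 and 0.90 (adjusted p = 0.0243 and 0.0245 from edgeR). Hoxaas2, Gm15050, Gm29430 and Gm11536 fell in Adm+/- pups and were not called in WT. Of these 6 genes, 5730596B20Rik, Hoxb3os, Hoxaas2 and Gm29430 share exon bases with Hox genes on the opposite strand, so their values may hold reads of those Hox genes, while Gm15050 and Gm11536 share 0 exon bases with Hox genes.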

How the data were processed

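Whole-lung total RNA of 12 mice was sequenced after rRNA depletion with a directional kit. Alignment to mm10 (HISAT2) and counting per Gencode gene (featureCounts) were done by the authors, and the deposited values are raw counts without normalization. The Gencode release and the strand option of the counting are not given in the sources used here. Gencode M21 gave positions, overlaps and exon lengths, and matched 99.7% of the genes.

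Analyses used DESeq2 1.42.0, limma 3.58.1 and edgeR 4.0.16 in R 4.3.3. Of the 21950 protein-coding genes, 15885 passed filterByExpr over the 4 groups, were scaled by TMM and entered edgeR's quasi-likelihood F-test in a single fit of all 12 libraries, with 1 coefficient per group and 8 residual degrees of freedom. The 5 contrasts and the adjustment covered all tested genes. Replicate numbers are the library numbers of the labels, and each library is 1 mouse. The median total was 28494877 counts per library, and members with few counts have wide counting error. Standard errors were derived from the F statistic, and the fit was tested on simulated data. The members, the gene lists and the rule for naming genes (members with a mean of at least 1 CPM or called in any contrast, and up to 4 genes per list) were chosen with earlier results of these data known. The promoters shown were chosen after values were seen, protein sequences were not used here, and the values of 1 member and 1 cofactor are not reported here, although counts include them. The study's methods used limma, which is an alternative here because counts were deposited. Other alternatives were RLE and upper-quartile factors, DESeq2, glmTreat, other filters, all annotated genes, marker covariates, a GC offset, the libraries compared only, and leaving out libraries.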

Additional observations from a re-analysis of the deposited data

How the results depend on the processing

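No setting called a Hox gene for the genotype difference in LPS response or between genotypes with PBS. In WT pups the 9 called Hox genes became 4 with glmTreat, 3 with only the libraries compared, 0 with the skeletal muscle covariate and 2 with the lung mesenchymal factor covariate, and ran from 6 (without WT LPS replicate 9) to 10 when single libraries were left out. In Adm+/- pups the 13 became 5 with glmTreat and 0 with the lung mesenchymal factor covariate, and ran from 10 to 13 when single libraries were left out. Between genotypes with LPS the 2 became 1 with glmTreat, 1 with a mean of at least 1 CPM (which drops Hoxc4), 0 with the skeletal muscle covariate and 0 with the fibroblast covariate, and ran from 1 to 3 when single libraries were left out. The share of all tested genes called in these settings is not given here, except for the skeletal muscle covariate in WT. The drops are therefore not shown to be particular to the Hox genes. The mesenchymal covariate was chosen after seeing the data. The skeletal muscle covariate parts WT LPS from the other groups, and with it 0 of all tested genes were called in WT. It turned the WT value of Hoxb7 from a fall to 0.038 (adjusted p = 0.993 from edgeR), and no other called value changed sign in any setting. Without WT PBS replicate 5 and Adm+/- PBS replicate 6 the counts were 10 in WT and 12 in Adm+/- pups.

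In Adm+/- pups, calls that depended on single libraries were those of Hoxa6 (without Adm+/- PBS replicate 8, adjusted p = 0.0549), Hoxa7 (lost in 7 of 12 fits, the highest adjusted p being 0.18 without Adm+/- PBS replicate 8) and Hoxb3 (lost without Adm+/- PBS replicates 7 or 8 or Adm+/- LPS replicates 2 or 12, adjusted p from 0.0617 to 0.0819). Likewise those of Hoxb8 were lost without Adm+/- PBS replicate 6 or Adm+/- LPS replicates 1 or 12 (adjusted p from 0.0685 to 0.0778) and those of Hoxd9 without Adm+/- PBS replicates 6 or 8 or Adm+/- LPS replicates 2 or 12 (adjusted p from 0.087 to 0.114, all from edgeR). The causes were not tested. No paired analysis was possible because the groups share no replicate numbers. Members under 1 CPM, among them Hoxc4, Hoxd4 and Hoxd9, are limited by depth.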
